A study of Homo sapiens with 32 samples.

Results

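The comparison described here asks what wild-type SMARCA2 did to gene expression in H1299 cells whose own SMARCA2 had been knocked down. It sets the 3 arrays titled S2sh7 SMARCA2 WT against the 3 titled S2sh7 GFP control, 6 of the 32 arrays of the series, and the arrays were taken by their titles. SMARCA2 and SMARCA4 are the alternative ATPase motors of the SWI/SNF chromatin remodelling complexes, which use ATP to slide and evict nucleosomes and so open enhancers and promoters. SMARCA2 also carries a bromodomain, a fold that binds acetylated histone tails. H1299 is an established human lung carcinoma line known to have lost SMARCA4 protein, so that its complexes depend on SMARCA2 as the remaining motor.

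All cells were untreated, stable isogenic H1299 lines, measured in an array batch labelled Batch1, and each line carried a short hairpin RNA (shRNA) and a cDNA. The shRNA was S2sh7, against the ATPase domain of SMARCA2, or shLuc, against luciferase. The cDNA was GFP, or wild-type (WT), bromodomain mutant (BRD MUT, here BRD) or ATPase dead (ATPdead) SMARCA2, with 3 arrays for each of the 8 combinations and 24 H1299 arrays in all. The 8 remaining arrays are from another lung cancer line, A549, and were not used. The GFP lines and the WT lines compared here both carried S2sh7. The labels call the 3 arrays of a line biological replicates and do not say whether these came from separate cultures or infections, so the p-values cover the spread among these arrays and nothing wider. Whether the WT cDNA escapes the hairpin is not stated in the labels, nor is the number of infections or clones behind each line.

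Values are intensities per probe set of the Affymetrix HG-U133 Plus 2.0 array, and differences are given on the log2 scale, where 1 is a doubling. A gene was called when its adjusted p in limma was under 0.05 over all 12564 genes tested. Array medians over the 24 arrays ran from 26.4 to 27.3, replicates correlated at 0.9971 to 0.9984, and the number of arrays limits the precision. The 3' minus 5' log2 difference of the ACTB control probe sets, a sign of RNA integrity, averaged 0.234 in the GFP arrays and 0.247 in the WT arrays. Among markers of the line, the mesenchymal filament VIM stood at an intensity of 14411 with GFP and 14139 with WT. The epithelial keratins KRT18 (5376 and 6073) and KRT8 (986 and 1263) were present too. KRT7 (45.4 and 64.5) and KRT19 (18.4 and 17.3) read low, and the epithelial genes CDH1 (12.5 and 12.7) and EPCAM (6.94 and 7.23) lay near background. Of 14 leukocyte and endothelial markers 4 lay over log2 5, with summed intensities of 284 to 298 with GFP and 277 to 286 with WT, and PTPRC stood at 8.65 and 8.57. Of 11 fibroblast markers 4 lay over log2 5, with sums of 354 to 386 and 348 to 377. In bulk RNA, fewer cells of a kind and less RNA per cell cannot be told apart.

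SMARCA2 itself was the most increased gene. The probe set that read highest over the 24 arrays read 21.8, 19.9 and 35.5 in the GFP arrays and 91.2, 65.3 and 73.8 in the WT arrays, against 43.7, 43.6 and 40.4 in the shLuc GFP line. The groups did not overlap, the GFP array of replicate 3 lay above the others of its line, and the rise was 3.06-fold (log2 difference 1.61, SE 0.160, adjusted p = 1.45e-06), to above the level of the control line. None of the other 4 tested SMARCA2 probe sets was called above that line. A second rose from a mean of 20.1 to 31.4 (log2 difference 0.64) and stayed below the 51.8 of the shLuc GFP arrays. The brightest probe set in both GFP lines read 34.2 with S2sh7 and 84.3 with shLuc, and its difference with WT was not called (0.19 log2, adjusted p = 0.332). Another was not called either, at 28.7 with GFP and 27.0 with WT, against 70.4 in the shLuc GFP arrays. Which part of the transcript each probe set reads was not analysed here, so cDNA and endogenous RNA were not separated. The brightest SMARCA4 probe set read 106, 111 and 113 with GFP and 136, 122 and 125 with WT (log2 difference 0.22, SE 0.065, adjusted p = 0.0496), a call that was lost when any of the 6 arrays was left out (adjusted p from 0.0563 to 0.188). Among 27 tested subunits of the complex other than its ATPases, ARID1A was called, lower by 0.11 log2, and 26 were not. The ARID1A call was lost when any array other than S2sh7 GFP replicate 3 was left out (adjusted p from 0.0738 to 0.164).

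In limma 885 of 12564 genes (7.04%) were called between the WT and GFP arrays, 578 higher with WT (4.6%) and 307 lower (2.44%). The changes were small: the median size was 0.20 log2, or 1.15-fold, among the higher genes and 0.18, or 1.13-fold, among the lower, and 20 and 4 genes changed at least 1.5-fold. The 3 WT arrays and the 3 GFP arrays did not overlap for 862 of the called genes, and over all genes tested they did not overlap for 2842 (22.6%). The number of calls depended on the arrays used, being 521 without S2sh7 GFP replicate 1 and 589 without S2sh7 WT replicate 2. The 578 became 313 without S2sh7 GFP replicate 1 and 382 without S2sh7 WT replicate 1. The 307 became 196 without S2sh7 GFP replicate 2, 192 without S2sh7 GFP replicate 3 and 157 without S2sh7 WT replicate 2. Centring the arrays on their medians gave 484 higher and 485 lower calls, so how the calls split by direction rested on the scaling.

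Of the genes that respond to the knockdown and were called with WT, those lowered by the knockdown were mostly higher and those raised by it mostly lower. The share of the latter was about the same with the control hairpin. Both were read from classes defined on other arrays, the BRD and ATPdead lines, with S2sh7 set against shLuc within each line. Of 1421 genes called lower with S2sh7 in both mutant lines, 383 (27.0%) were called higher with WT and 32 (2.25%) lower, with a median difference of 0.08 log2 against 0.01 over all genes. In the shLuc lines WT raised 103 of them (7.25%) and lowered 37, with a median of 0.01. For comparison, 4.6% of all genes tested were called higher with WT under S2sh7 and 2.44% lower. Under shLuc 1.31% of all genes were called higher and 2.7% lower. Of 1339 genes called higher with S2sh7 in both mutant lines, 152 (11.4%) were called lower with WT and 9 (0.672%) higher, with a median of -0.04. In the shLuc lines WT lowered 151 of them (11.3%) and raised 6 (0.448%), with the same median of -0.04. Most genes of both classes were therefore not called. The 27.0% became 16.5% without S2sh7 GFP replicate 1, and the 11.4% became 7.17% without S2sh7 WT replicate 2. MMP1, a collagenase, went the other way: it was called higher with S2sh7 in both mutant lines (1.00 and 0.81 log2) and higher again with WT (0.26), although its WT and GFP arrays overlapped and the call was lost without S2sh7 GFP replicate 1 or 3 or S2sh7 WT replicate 1 or 3 (adjusted p from 0.122 to 0.184).

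**Figure D1:**
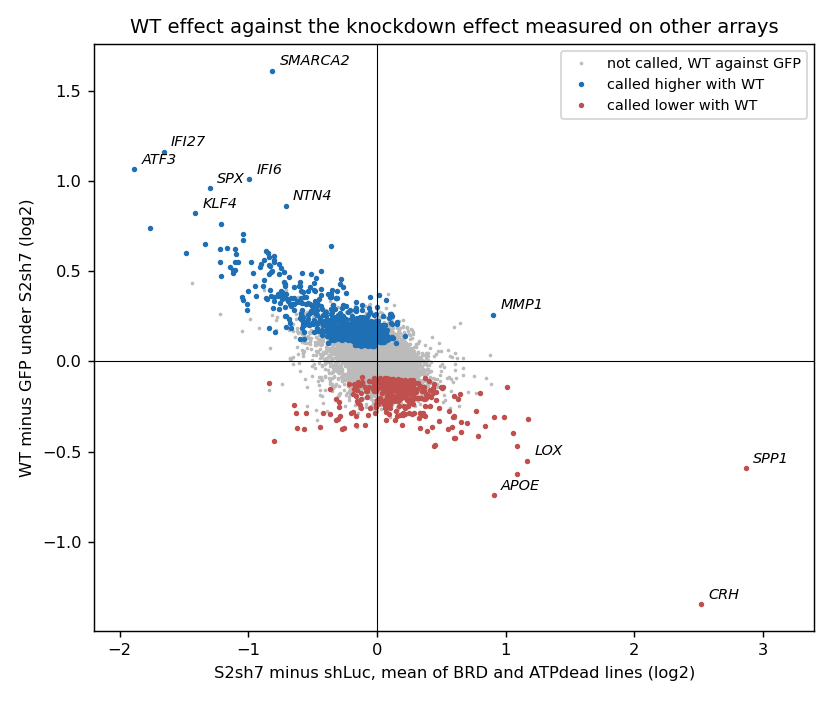
Each point is 1 of 12564 genes, with the S2sh7 minus shLuc log2 difference averaged over the BRD and ATPdead lines on the horizontal axis and the WT minus GFP log2 difference under S2sh7 on the vertical axis. Genes called higher with WT (blue, 578) lie mostly left of 0 and genes called lower (red, 307) mostly right of 0, with CRH at -1.34 and SMARCA2 at 1.61 on the vertical axis; the axes share no array.

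ATF3, a stress-induced transcription factor of the bZIP family, read 67.8, 76.5 and 74.9 in the GFP arrays and 152, 148 and 158 in the WT arrays. The groups lay far apart, and the rise was 2.09-fold (log2 difference 1.06, SE 0.054, adjusted p = 1.07e-10). The shLuc GFP arrays, at 390.1, 364 and 364, stayed higher still, by 1.29 log2 (adjusted p = 1.63e-12). KLF4, a zinc finger transcription factor of epithelial differentiation, read 139, 147 and 152 with GFP and 248, 249 and 278 with WT, with no overlap (log2 difference 0.82, SE 0.050, adjusted p = 1.60e-09). Its shLuc GFP arrays, at 509, 516 and 523, again exceeded every WT array.

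CRH, the corticotropin-releasing hormone, had the largest fall. It read 540.2, 567 and 563 with GFP and 218, 217 and 223 with WT (log2 difference -1.34, SE 0.066, adjusted p = 8.72e-11), a drop to a level that still exceeded the 67.7, 64.6 and 76.1 of the shLuc GFP arrays by 1.66 log2. APOE, the lipid-carrying apolipoprotein, fell from 568, 573 and 563 to 346, 336 and 336 (log2 difference -0.74, SE 0.034, adjusted p = 3.29e-11). SPP1, the secreted phosphoprotein osteopontin, fell from 2718, 2633 and 2717 to 1787, 1832 and 1737 (log2 difference -0.59, SE 0.037, adjusted p = 2.74e-09). In neither gene did the arrays overlap, but SPP1 with WT remained 2.78 log2 above the shLuc GFP arrays (259, 259.5 and 261), so most of its difference from the control line was still there, whereas APOE stood 0.47 above.

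NTN4, a laminin-related secreted guidance protein, came close to the control line. It rose from 31.8, 34.3 and 30.8 to 54.8, 59.5 and 62.0 (log2 difference 0.86, SE 0.085, adjusted p = 1.43e-06), against 62.7, 65.6 and 72.7 in the shLuc GFP arrays, and the remaining difference of -0.19 log2 was not called (adjusted p = 0.116), which does not show that the levels were equal. SERPINE2, a secreted inhibitor of thrombin and plasminogen activators, rose from 307, 329 and 297 to 524, 522 and 536 (log2 difference 0.76, SE 0.043, adjusted p = 6.46e-10). Other genes with large rises were the neuropeptide gene SPX (0.96 log2), C11orf96 (0.71), the unconventional myosin MYO5B (0.65), the neurofilament gene NEFM (0.64) and MGLL (0.63), a lipase that splits monoglycerides. SPX, C11orf96 and NEFM lay under log2 5 in the GFP arrays, near background, where a fold can be understated.

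Several transcription factors were among the largest falls. EOMES, a T-box factor of early development, read 102, 97.4 and 112 with GFP and 59.3, 70.6 and 73.2 with WT (log2 difference -0.62, SE 0.111, adjusted p = 0.00133). MEF2C (-0.43), ID2 (-0.40), an inhibitor of basic helix-loop-helix factors, ARID5B (-0.39) and the homeobox gene HLX (-0.38) fell as well. So did LOX (-0.55), which cross-links collagen, the phosphatase DUSP10 (-0.47), the protease inhibitor TFPI2 (-0.47) and TRIB1 (-0.43). FAT4, NEGR1 and PRSS16 completed the 15 largest falls, and their calls each rested on particular arrays. FAT4, at -0.41, was not called without S2sh7 GFP replicate 2 (-0.36, adjusted p = 0.0507). NEGR1, at -0.47, was not called without the same array (-0.33, adjusted p = 0.0615). PRSS16, at -0.38, was not called without S2sh7 GFP replicate 3 (-0.32, adjusted p = 0.0533) or S2sh7 WT replicate 1 (-0.33, adjusted p = 0.0502).

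**Figure D2:**
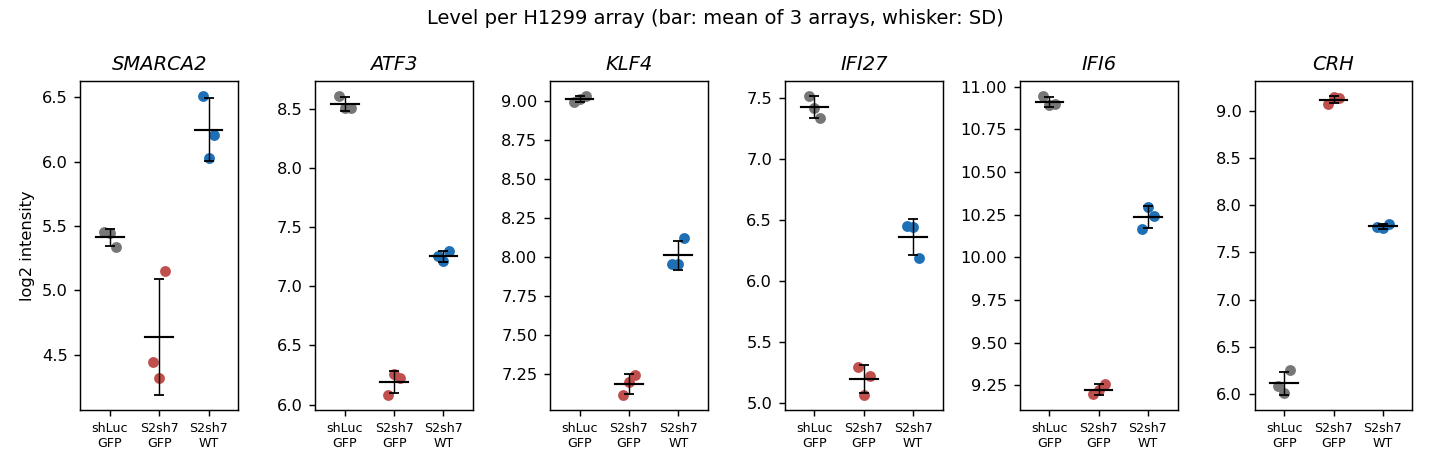
Log2 intensity of 6 genes on each array of the shLuc GFP, S2sh7 GFP and S2sh7 WT lines (points, 3 per line), with the mean (bar) and SD (whisker). ATF3, KLF4, IFI27 and IFI6 with WT lie between the S2sh7 GFP and the shLuc GFP arrays, CRH with WT lies between them too, and SMARCA2 with WT lies above both.

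Interferon-stimulated genes, which limit virus replication and are switched on by interferon signalling, had the largest share of rises among the 30 gene lists examined. The lists were chosen with earlier results of these data known, so the shares of these lists describe them only. Of 46 listed antiviral effectors 35 were bright enough to be tested, and 22 of these (62.9%) rose with WT, none fell and 13 were not called, against 4.6% higher over all genes. Their median difference was 0.32 log2, and the count was 20 to 24 when any of the 6 arrays was left out. IFI27, an interferon-induced membrane protein, read 39.2, 33.5 and 37.3 with GFP and 87.1, 86.6 and 72.7 with WT (log2 difference 1.16, SE 0.109, adjusted p = 7.02e-07). IFI6, an endoplasmic reticulum protein that blocks flavivirus replication, read 587, 597 and 613 with GFP and 1149.8, 1258 and 1213 with WT (log2 difference 1.01, SE 0.041, adjusted p = 8.74e-12). Both genes had arrays that did not overlap and both stayed below the shLuc GFP line, IFI6 at -0.68 log2 from it, and IFI27 at -1.06.

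The ubiquitin-like modifier ISG15 read 711, 772 and 781 with GFP and 1004, 1112 and 1078 with WT (log2 difference 0.50, SE 0.055, adjusted p = 6.17e-06). IFIT1, which binds viral RNA caps, read 107, 133 and 134 with GFP and 174, 185 and 180.3 with WT (log2 difference 0.53, SE 0.069, adjusted p = 3.91e-05). OAS1, a synthase of the oligoadenylate messenger that activates RNase L, read 9.88, 12.4 and 13.5 with GFP and 18.2, 21.3 and 19.8 with WT (log2 difference 0.74, SE 0.124, adjusted p = 0.000736). None of these 3 genes had overlapping groups. OAS1 lay under log2 5 in both lines, near background, and was tested only because other lines exceeded that level. Its difference is therefore uncertain, although it stays among the called genes and the largest rises. IFI44 (0.62), IFIT3 (0.49), the lectin-binding glycoprotein LGALS3BP (0.54) and PLSCR1 (0.24) rose as well. With any of the 6 arrays left out, 4 to 6 of 25 sensors and signalling genes were called higher. With all arrays 6 (24.0%) were called higher and none lower (median 0.06), against 4.6% higher over all genes. They included the DNA sensor IFI16 (0.55), the RNA sensor IFIH1 (0.22, not called with the mean of its probe sets, 0.21, adjusted p = 0.0575), and the transcription factors IRF9 (0.34) and IRF1 (0.22).

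Promoters of 3 of these genes are shown because the motif they share was common in the interferon list. Each is the 250 bases before the RefSeq start site (GRCh38.p14), read 5′ to 3′ along the gene, with matches to GAAA, any 2 bases and GAAA again, the core of the interferon-stimulated response element, in capitals on either strand. IFI6 lies at chr1:27672193-27672442 on the minus strand, IFI27 at chr14:94110486-94110735 on the plus strand, and ISG15 at chr1:1013247-1013496 on the plus strand, where 2 matches overlap.
IFI6: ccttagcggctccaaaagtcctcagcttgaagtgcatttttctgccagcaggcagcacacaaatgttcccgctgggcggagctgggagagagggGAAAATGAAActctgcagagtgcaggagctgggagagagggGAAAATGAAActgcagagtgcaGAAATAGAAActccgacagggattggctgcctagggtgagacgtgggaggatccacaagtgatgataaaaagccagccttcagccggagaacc
IFI27: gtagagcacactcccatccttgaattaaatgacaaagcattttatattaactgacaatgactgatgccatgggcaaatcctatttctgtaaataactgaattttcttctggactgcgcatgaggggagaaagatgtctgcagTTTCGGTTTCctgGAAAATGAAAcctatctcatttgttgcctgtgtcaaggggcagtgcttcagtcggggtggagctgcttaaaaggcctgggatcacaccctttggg
ISG15: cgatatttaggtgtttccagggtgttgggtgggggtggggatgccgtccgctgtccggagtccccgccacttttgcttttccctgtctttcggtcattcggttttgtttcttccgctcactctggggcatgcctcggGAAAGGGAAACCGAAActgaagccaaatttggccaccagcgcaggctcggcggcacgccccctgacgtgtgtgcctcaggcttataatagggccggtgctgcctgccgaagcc
IFI6 held 3 matches, starting 156, 115 and 93 bases before its start site, IFI27 held 2, at 108 and 95, and ISG15 2, at 113 and 107. Among interferon effectors with a promoter sequence the motif was found in 15 of the 19 called (78.9%) and in 23 of the 30 tested (76.7%). For these shares the window was 250 bases before to 50 after the start. It was found in 2.59% of the promoters of all genes tested and in 3.65% of all 27305 promoters. None of the 33 promoters of integrated stress response genes, the 21 of immediate early genes or the 23 of extracellular matrix genes held it. A match is a run of letters and does not show that a factor binds there.

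With the control hairpin the WT cDNA had the opposite direction on this list. In the shLuc lines 16 of the 35 tested interferon effectors fell with WT and none rose, and their median was -0.17, against calls for 503 of all genes in that comparison (4.0%), 164 higher (1.31%) and 339 lower (2.7%). IFI6 read 1973, 1902 and 1907 in the GFP arrays of that hairpin and 1393, 1410.2 and 1377 in its WT arrays (log2 difference -0.47, SE 0.041, adjusted p = 3.98e-06). IFIT1 fell from 321, 302 and 316 to 213, 237 and 202 (log2 difference -0.53, SE 0.069, adjusted p = 0.000253). Neither gene's groups overlapped. Of the 22 effectors that rose under S2sh7, 13 fell under shLuc. The 16 falls became 10 without shLuc GFP replicate 3, 8 without shLuc WT replicate 1 and 11 or 12 without each of the other 4 arrays. The difference between the 2 WT effects was called for 391 genes (3.11%), 317 higher under S2sh7 (2.52%) and 74 lower (0.589%), and for 27 of the 35 effectors, all higher under S2sh7, with a median of 0.48. This count was 19 to 27 when any of the 12 arrays was left out, and no effector was called lower in these fits. For IFI6 the WT effects were 1.48 log2 apart (SE 0.058, adjusted p = 4.67e-12), and the gap was 1.40 for IFI27 and 1.06 for IFIT1.

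**Figure D3:**
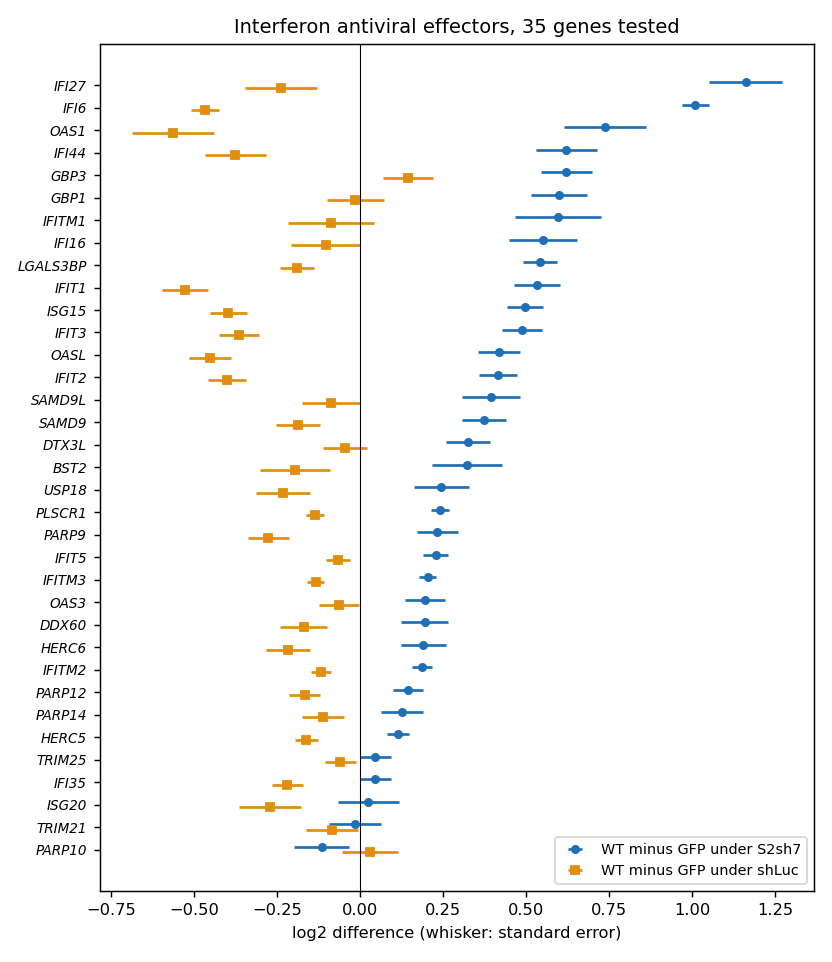
WT minus GFP log2 difference with its standard error for the 35 tested interferon antiviral effectors, under S2sh7 (blue circles) and under shLuc (orange squares). The 22 called genes lie right of 0 under S2sh7, from IFI27 at 1.16 to smaller values, while most of the same genes lie left of 0 under shLuc, IFI6 at -0.47.

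Antigen presentation genes, which are also interferon-inducible, moved with them: 8 of 17 tested (47.1%) rose, none fell and 9 were not called, with a median of 0.11. Over all genes 4.6% rose. The rises of this list became 6 or 7 when any of the 6 arrays was left out. HLA-C, a class I heavy chain, read 2221, 2184 and 2268 with GFP and 2701, 2851 and 2877 with WT (log2 difference 0.34, SE 0.029, adjusted p = 2.33e-07). HLA-B (0.28) and HLA-G (0.21) rose too, though these paralogs are near-identical in sequence and their probe sets may share signal. The immunoproteasome subunit PSMB8 rose by 0.28, its activator subunit PSME1 by 0.18 and the class I light chain B2M by 0.20, a call that was lost with the mean of all B2M probe sets (0.14, adjusted p = 0.0653). In the shLuc lines 1 of the 17 genes fell and none rose, a call lost without any shLuc array but shLuc GFP replicate 2. The shares over all genes there were 2.7% lower and 1.31% higher. In the difference between the WT effects 8 of the 17 were called, all higher under S2sh7, HLA-C by 0.40. Over all genes 2.52% were called higher in that difference.

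The integrated stress response, in which ATF4 drives amino acid supply and stress genes when translation initiation is held back, rose in part. Against 4.6% higher and 2.44% lower over all genes, 14 of 38 tested genes (36.8%) rose, 1 fell and 23 were not called (median 0.08). The fall was lost without any array but S2sh7 WT replicate 1, and the 14 became 8 without S2sh7 GFP replicate 1 and 9 without S2sh7 GFP replicate 3 or S2sh7 WT replicate 1. CHAC1, which degrades glutathione, read 119, 128 and 123 with GFP and 169, 150.2 and 150.4 with WT (log2 difference 0.34, SE 0.064, adjusted p = 0.00203). TRIB3, a pseudokinase that restrains ATF4, read 283, 309.5 and 314 with GFP and 379, 374 and 379.9 with WT (log2 difference 0.32, SE 0.036, adjusted p = 6.17e-06). Neither gene's groups overlapped. DDIT4, an inhibitor of mTORC1 signalling, rose by 0.49, the phosphatase subunit PPP1R15A by 0.29 and the amino acid transporter subunit SLC3A2 by 0.18. All 5 stayed below the shLuc GFP arrays, CHAC1 at -0.77 log2 and TRIB3 at -0.57. Among 20 endoplasmic reticulum chaperones and sensors 3 rose and none fell, with XBP1, a factor of the unfolded protein response, at 0.36. The other rises, HERPUD1 and ERN1, were not called with the mean of their probe sets (0.02 and 0.12, limma's adjusted p = 0.846 and 0.141). ERN1 was also not called without S2sh7 GFP replicate 1 or 3 or S2sh7 WT replicate 1 or 3 (limma's adjusted p from 0.0862 to 0.127).

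The promoters of ATF3 and CHAC1 are shown, as genes of this list with its motif, in the same window, with matches to TGATGNAA, the core of the amino acid response element bound by ATF4, in capitals on either strand. ATF3 lies at chr1:212565157-212565406 on the plus strand and CHAC1 at chr15:40953221-40953470 on the plus strand.
ATF3: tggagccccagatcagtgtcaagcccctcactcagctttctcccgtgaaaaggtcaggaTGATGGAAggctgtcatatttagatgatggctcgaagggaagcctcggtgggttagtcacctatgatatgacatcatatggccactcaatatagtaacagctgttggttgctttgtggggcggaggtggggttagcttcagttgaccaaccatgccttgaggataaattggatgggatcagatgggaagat
CHAC1: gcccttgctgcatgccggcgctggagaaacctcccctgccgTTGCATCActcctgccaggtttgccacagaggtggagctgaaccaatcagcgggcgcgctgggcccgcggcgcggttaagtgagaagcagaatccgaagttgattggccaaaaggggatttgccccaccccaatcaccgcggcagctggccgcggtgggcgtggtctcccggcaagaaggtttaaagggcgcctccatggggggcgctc
The match lay 191 bases before the RefSeq start site used for ATF3 and 209 before that used for CHAC1, on the opposite strand in the latter. Other start sites of these genes were not searched. For the shares that follow, the window was again 250 bases before to 50 after the start. The motif was found in 3 of the 12 stress response genes called higher that had a promoter sequence (25.0%) and in 8 of the 33 tested (24.2%), against 1.69% of all genes tested and 3.67% of all promoters. The AP-1 site TGANTCA, searched on both strands, was found in 2 of those 12 promoters and in 4.48% of all genes tested.

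Immediate early genes, which respond within minutes to growth factors and stress, gave 8 rises, 2 falls and 18 genes not called of 28 (median 0.04). These were 28.6% higher and 7.14% lower, against 4.6% and 2.44% over all genes. The falls became 1 without S2sh7 GFP replicate 1 or S2sh7 WT replicate 3 and 0 without any of the other 4 arrays. In the shLuc lines 7 of the 28 genes (25.0%) rose and 1 (3.57%) fell (median 0.05). The shares over all genes there were 1.31% higher and 2.7% lower. Under S2sh7 the rises were led, beside ATF3 and KLF4, by IER3 (0.51 log2, adjusted p = 1.32e-07), KLF2 (0.40), FOSL1 (0.31), an AP-1 subunit, and KLF10 (0.19). Of 13 Kruppel-like factors these 3, KLF4, KLF2 and KLF10, were called, all higher. The ligands of the EGF receptor HBEGF (0.37) and TGFA (0.29) rose, whereas the feedback inhibitors of MAP kinase signalling DUSP10 (-0.47), DUSP6 (-0.18) and SPRY2 (-0.20) fell. In that list of 22 genes 3 rose and 4 fell. TGFA was not called with the mean of its probe sets (0.08, adjusted p = 0.433).

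Matrix genes changed in both directions. Of 28 extracellular matrix genes 10 (35.7%) rose, 4 (14.3%) fell and 14 were not called, with a median of 0.08. Over all genes 4.6% rose and 2.44% fell. COL13A1, a transmembrane collagen, read 63.5, 54.3 and 61.9 with GFP and 100.4, 90.8 and 94.3 with WT (log2 difference 0.67, SE 0.061, adjusted p = 4.53e-07). TGFBI, a TGF-beta-induced matrix protein, read 898, 880.3 and 891 with GFP and 1342, 1236 and 1333 with WT (log2 difference 0.55, SE 0.032, adjusted p = 1.27e-09). LOX, in contrast, read 522, 519.8 and 532 with GFP and 374, 335 and 367 with WT (log2 difference -0.55, SE 0.056, adjusted p = 1.99e-06). The groups of all 3 genes were separate, and LOX fell while its relative LOXL2 rose by 0.53, although LOXL2 was not called with the mean of its probe sets (0.07, adjusted p = 0.371). THBS1 rose by 0.48 in its brightest probe set and was likewise not called with the mean (0.13, adjusted p = 0.0706).

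In the plasminogen and matrix protease list 5 of 17 genes rose and 1 fell (median 0.09). With any of the 6 arrays left out, 4 or 5 rose. The background for this and the next lists was 4.6% higher and 2.44% lower over all genes. The urokinase gene PLAU rose by 0.43 (adjusted p = 4.62e-09) and the inhibitor TIMP2 by 0.39, while TIMP1 fell, at -0.16. Of 22 YAP and TAZ targets 7 rose and 3 fell (median 0.02). The rises became 5 or 6 and the falls 1 when any of the 6 arrays was left out. In the shLuc lines WT raised 8 of the 22 genes (36.4%) and lowered none (median 0.14). The shares over all genes there were 1.31% higher and 2.7% lower. Under S2sh7 FSTL1 (0.58), GADD45A (0.39), AJUBA (0.35) and the receptor kinase AXL (0.32) rose. Of 22 actin cytoskeleton genes 5 rose and 1 fell (median -0.001), the rises becoming 3 without S2sh7 GFP replicate 3 or S2sh7 WT replicate 1 or 3, with TPM1 and TAGLN2 each at 0.27 and TPM4 at -0.28, the last not called with the mean of its probe sets (-0.10, adjusted p = 0.183). In the BMP and TGF-beta list 3 of 20 rose and 2 fell, led by TGFBI and ID2, and the falls became 1 without S2sh7 GFP replicate 2 or 3 or S2sh7 WT replicate 1 or 2.

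Several keratins rose while the tight junction genes CLDN1 and OCLN fell. Among 20 epithelial genes 4 were called higher and 2 lower (20.0% and 10.0%), against 4.6% and 2.44% over all genes. KRT8, a simple epithelial keratin, read 976, 1014 and 969.5 with GFP and 1242, 1257 and 1289.8 with WT (log2 difference 0.36, SE 0.033, adjusted p = 4.61e-07), and KRT7 (0.50), KRT80 (0.48) and KRT18 (0.18) moved with it. CLDN1 lay between 501 and 510.0 with GFP and between 404 and 436 with WT (log2 difference -0.26, SE 0.041, adjusted p = 0.00039), and OCLN fell, at -0.26. Mesenchymal genes gave 4 rises and 1 fall of 22 (median 0.10, and no fall without S2sh7 WT replicate 2), with AXL and TGFBI among the rises, which became 2 without S2sh7 GFP replicate 1 or S2sh7 WT replicate 2 or 3, and VIM was not called. The keratins rose from levels below those of the shLuc GFP line and did not reach them, KRT8 standing at -0.45 log2 from it, whereas CLDN1, whose arrays overlapped with that line, stood at -0.03 (adjusted p = 0.689).

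WNT pathway genes split, and in all 3 of 13 rose and 1 fell. The antagonist DKK3 rose by 0.44 (limma's adjusted p = 2.74e-09). Its relative DKK1 fell from 730.0, 719 and 780.0 to 601, 560.1 and 628 (log2 difference -0.32, SE 0.040, limma's adjusted p = 2.52e-05). The rises of CCND1 and WNT5B were not called with the mean of their probe sets (0.09 and 0.13, limma's adjusted p = 0.251 and 0.0523). WNT5B was also not called without S2sh7 WT replicate 1 (limma's adjusted p = 0.0612). Among 17 inflammatory secreted genes and their regulators 2 rose and 2 fell, led by the signalling adaptor TRAF1 (0.55) and the adhesion molecule ICAM1 (-0.22), with 1 rise without any array but S2sh7 WT replicate 2 and 1 fall without that array. Neuroendocrine genes gave 2 rises, SPX and NEFM, and 3 falls of 16, among them CRH and the secreted peptide precursor VGF (-0.29). Of 17 developmental transcription factors 2 rose and 2 fell (11.8% each), with RUNX2 at 0.26 beside EOMES and HLX, and 1 rose without S2sh7 WT replicate 3. Over all genes 4.6% were higher and 2.44% lower, and the few calls in these lists describe single genes.

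Several genes of lipid supply fell. Of 22 genes of the cholesterol and lipid export list 6 (27.3%) fell, 1 rose and 15 were not called, with a median of -0.06. Over all genes 2.44% fell. The falls of this list numbered 4 to 6 when any of the 6 arrays was left out. APOE and its chromosomal neighbour APOC1 (-0.29) led, followed by the isoprenoid enzymes IDI1 (-0.22) and FDPS (-0.15), and IDI1 was not called with the mean of its probe sets (-0.08, adjusted p = 0.138). The rise in this list was MGLL. In the shLuc lines 6 of the 22 genes fell and 1 rose as well, APOE at -0.43 log2 (limma's adjusted p = 1.26e-06). The shares over all genes there were 2.7% lower and 1.31% higher. In the difference of the WT effects 1 gene was called higher and 1 lower, against 2.52% and 0.589% over all genes.

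Few proliferation genes were called. Of 41 DNA replication genes 2 were called higher and none lower (median 0.02, which turned to just under 0 with centred arrays), a share near the background of 4.6%. The replication licensing inhibitor GMNN rose by 0.14 and the replication protein subunit RPA3 by 0.13. Of 36 mitotic genes 2 rose and 1 fell (5.56% and 2.78%), near the background of 4.6% higher and 2.44% lower. Those rises became 0 without S2sh7 GFP replicate 1 or 3 or S2sh7 WT replicate 1 or 2 and 1 without S2sh7 WT replicate 3, and the fall was lost without S2sh7 GFP replicate 1 or 2 or S2sh7 WT replicate 2 or 3. Of 21 CDK inhibitors, cyclins and partners 2 rose and 1 fell, with 1 rise without S2sh7 GFP replicate 3 or S2sh7 WT replicate 2, 2 falls without S2sh7 GFP replicate 3 and none without S2sh7 WT replicate 3. NRF2 targets gave 2 rises of 22, which became 0 without S2sh7 GFP replicate 1 or 3 or S2sh7 WT replicate 1 or 3, and hypoxia and glycolysis genes 1 rise, of the glucose transporter SLC2A1 (0.31), and 3 falls of 31. The rises were 2 without S2sh7 GFP replicate 1, and the falls became 0 without S2sh7 GFP replicate 1 or S2sh7 WT replicate 2 and 1 without S2sh7 GFP replicate 3 or S2sh7 WT replicate 1. Alveolar epithelium markers gave 1 fall of 8 tested, CAV1 at -0.11, and 2 falls without S2sh7 GFP replicate 1. Their summed intensity was 4239 to 4350 with GFP and 3952 to 4069 with WT, of which CAV1 alone made 3702 and 3432, and the surfactant gene SFTPB read 79.2 and 81.7. Of 7 carcinoma line markers the 3 keratins rose. None of the 4 tested leukocyte and endothelial markers or the 4 tested fibroblast markers was called by limma.

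**Figure D4:**
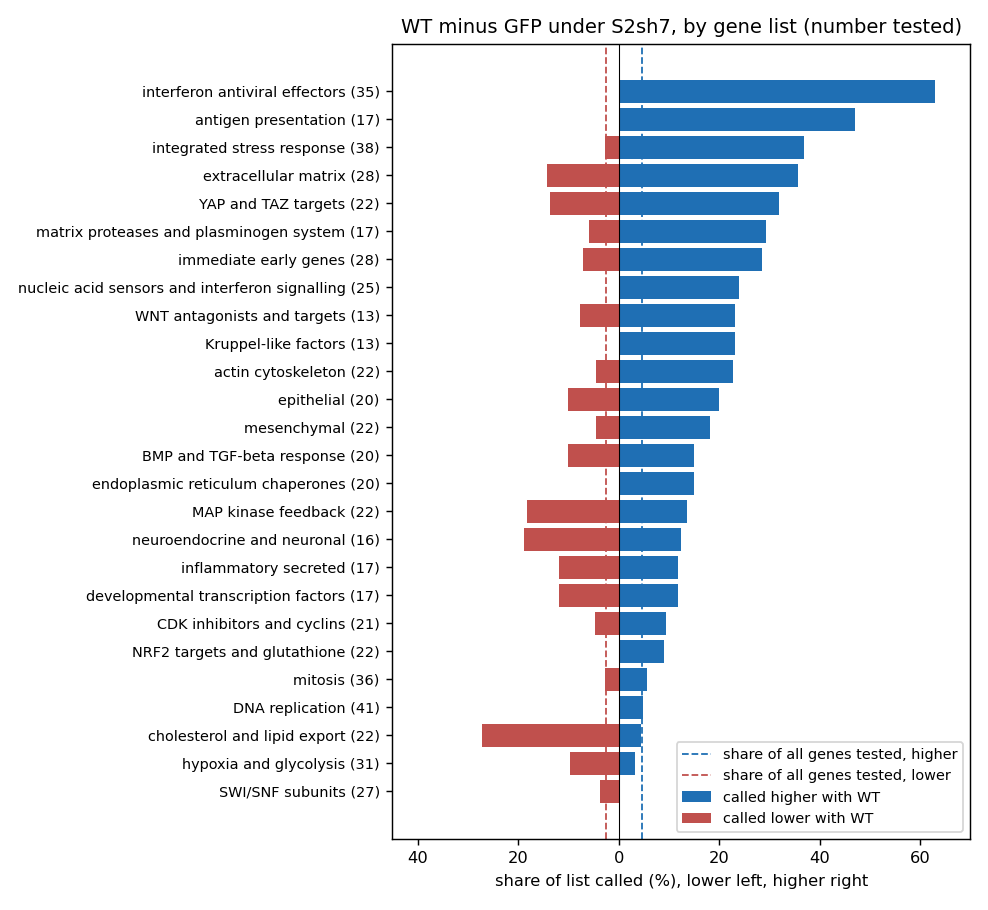
Share of the tested members of each gene list called lower (red, to the left) or higher (blue, to the right) with WT under S2sh7, in percent, with the number tested in parentheses; lists with fewer than 10 tested members are left out. Dashed lines mark the shares over all genes tested, 4.6% higher and 2.44% lower; interferon antiviral effectors reach 62.9% higher and cholesterol and lipid export genes 27.3% lower.

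Set against the WT effect in the shLuc lines, which was measured on other arrays, the rises were shared in part. Of the 578 genes called higher under S2sh7, 70 (12.1%) were also called higher under shLuc, which is 42.7% of the 164 higher there, and 26 (4.50%) were called lower, against 1.31% higher and 2.7% lower over all genes there. Of the 307 called lower, 57 (18.6%) were called lower under shLuc, which is 16.8% of the 339 lower there, and 5 (1.63%) higher. ATF3 rose in both, by 1.06 under S2sh7 and 0.26 under shLuc (adjusted p = 0.00876, a call lost without shLuc WT replicate 2, 0.23, adjusted p = 0.0564). CRH fell in both, at -1.34 and -0.44, the latter call being lost with the mean of its probe sets (-0.25, adjusted p = 0.0574), and MGLL rose in both, by 0.63 and 0.48. The WT effects lay apart for ATF3, by 0.80 log2, and for CRH (-0.91).

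Genes with an effect under S2sh7 and little under shLuc included KLF4, at 0.10 under shLuc (adjusted p = 0.299) and 0.72 in the difference, and SERPINE2, whose difference was 0.77. LOX (-0.54), TFPI2 (-0.47), CXCL2 (-0.47) and FRMD6 (-0.48) had the lowest differences after CRH, with ARID5B (-0.48), whose call was lost when any of 8 of the 12 arrays was left out (adjusted p from 0.0545 to 0.0821). These genes were named for their effect under S2sh7 or for the difference itself, so the differences describe them and support nothing further. The count of 391 fell to 185 without shLuc GFP replicate 1, 211 without S2sh7 GFP replicate 1, 229 without shLuc WT replicate 2 and 251 without shLuc WT replicate 1. The shLuc count of 503 fell to 199 without shLuc GFP replicate 1, 229 without shLuc GFP replicate 3, 242 without shLuc WT replicate 1 and 191 without shLuc WT replicate 2. With centred arrays the difference gave 159 higher and 212 lower genes and the shLuc comparison 300 higher and 175 lower.

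The ATPase dead line shows which genes read differently with WT than with a SMARCA2 without motor activity. ATPdead was not tested against GFP, so effects of ATPdead itself are not called here. Under S2sh7, 518 genes (4.12%) differed between the WT and ATPdead lines, 238 higher with WT (1.89%) and 280 lower (2.23%). ATF3 read 73.7, 75.3 and 80.3 with ATPdead, close to the 67.8, 76.5 and 74.9 of GFP, and WT exceeded ATPdead by 1.00 log2 (SE 0.054, adjusted p = 1.38e-09). IFI27 read 43.6, 42.5 and 43.1 and differed by 0.93 (adjusted p = 2.98e-05), and DDIT4 and IFI6 by 0.73 and 0.65. LOX read 611, 612 and 589, above its GFP arrays, and differed by -0.75 (adjusted p = 6.79e-08). CRH (-0.66) and APOE (-0.60) were lower with WT too. For CRH and IFI6 the gap between WT and ATPdead was smaller than that between WT and GFP. For DDIT4 and LOX it was larger.

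By list, those higher with WT than with ATPdead were 12 of 38 integrated stress response genes (31.6%), 10 of 35 interferon effectors (28.6%) and 6 of 17 antigen presentation genes (35.3%). None of these lists had a gene called lower. Over all genes 1.89% were higher with WT than with ATPdead and 2.23% lower. The comparisons of WT with ATPdead and with BRD share the S2sh7 WT arrays with that against GFP, so they are not separate support. The 12 became 7 without S2sh7 WT replicate 1 or 3 or S2sh7 ATPdead replicate 2 or 3. Not every gene called between WT and GFP differed from ATPdead. IFIT1, which rose with WT, read 183, 171 and 165 with ATPdead and differed by 0.06 (adjusted p = 0.723), and SPP1, which fell with WT, differed by -0.12 (adjusted p = 0.0796). The SMARCA2 probe set read 56.8, 62.5 and 50.9 with ATPdead, each below every WT array, and the difference of 0.43 log2 was not called (SE 0.160, adjusted p = 0.151). Its part in the differences between the cDNAs was not tested. The count of 518 fell to 308 without S2sh7 WT replicate 2 and 314 without S2sh7 ATPdead replicate 2, and with centred arrays 368 genes were higher and 220 lower.

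Few genes differed between WT and the bromodomain mutant. Between these lines 23 genes (0.183%) were called, 19 higher with WT (0.151%) and 4 lower (0.0318%), while 1399 genes had an unadjusted p under 0.05. ATF3 read 100.2, 109 and 94.7 with BRD, between its GFP and WT arrays, and WT was higher by 0.59 log2 (SE 0.054, adjusted p = 1.18e-05). TRAF1 (0.40), CHAC1 (0.32), MAFF (0.31), IFI6 (0.27) and PLK2 (0.26) followed. The 5 integrated stress response genes called of 38 were all higher with WT, against 1 interferon effector of 35, and the 5 became 2 to 4 when any of the 6 arrays was left out, 2 without S2sh7 WT replicate 1 or 2 or S2sh7 BRD replicate 3 and 3 without S2sh7 WT replicate 3 or S2sh7 BRD replicate 1. The SMARCA2 probe set read 61.3, 68.3 and 71.7 with BRD and was not called against WT (0.18, SE 0.160, adjusted p = 0.744). For KLF4 the difference was 0.13 (SE 0.050) and for SERPINE2 -0.01 (SE 0.043), neither called. This comparison was the least stable, with 3 to 14 calls when any of its 6 arrays was left out. Of the 10 named calls in it, the call of ATF3 held in each of these fits and 9 others were lost in at least 1 of them, IFI6 without S2sh7 WT replicate 2 (0.24, adjusted p = 0.0532).

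**Figure D5:**
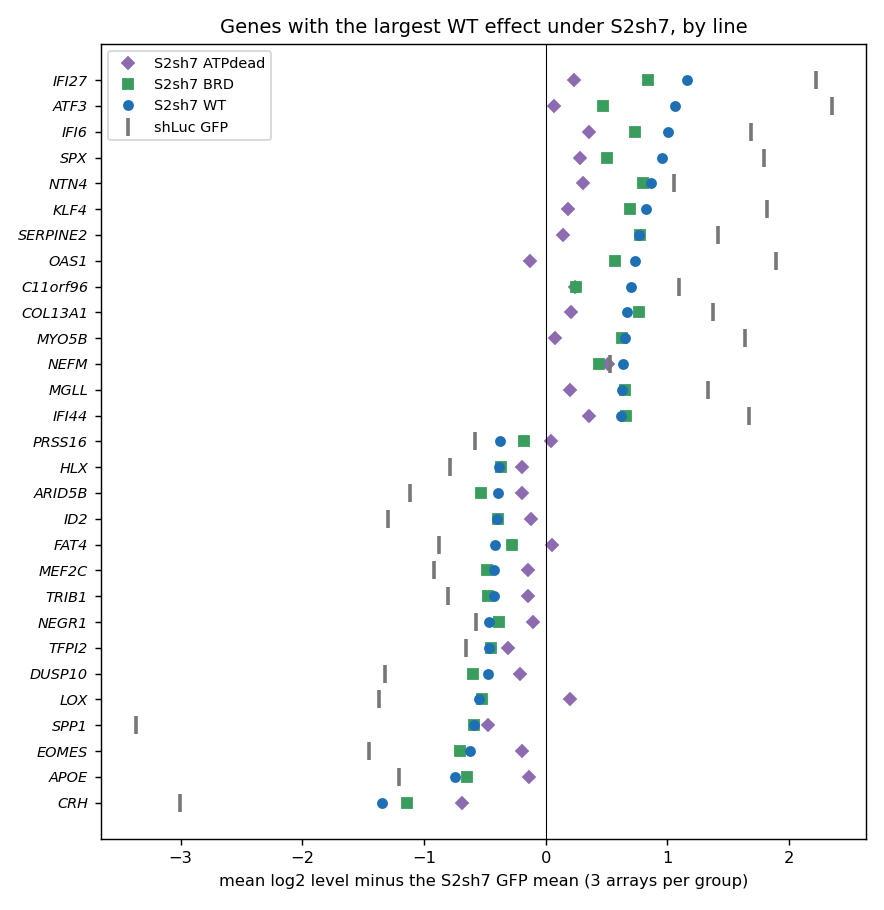
Mean log2 level of the genes with the largest WT effect (29 genes, SMARCA2 left out), minus the S2sh7 GFP mean at 0, for the S2sh7 ATPdead, BRD and WT lines and the shLuc GFP line, 3 arrays each. WT (circles) and BRD (squares) lie near each other and between 0 and the shLuc GFP line (ticks) for most genes, ATPdead (diamonds) lies nearer to 0, and for ATF3 WT exceeds BRD by 0.59.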

How the data were processed

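The 24 RNA samples of the 8 H1299 lines were hybridised to Affymetrix HG-U133 Plus 2.0 arrays. The authors deposited probe set intensities on a linear scale, made with RMA per the submitters' processing notes, whose versions are not given in the sources used here. The test had been written for log2 values, and the log2 of each deposited intensity was taken with no pseudocount. RMA subtracts background and forces equal distributions on the arrays, so a change common to most genes would be lost. The array holds 54675 probe sets. The 41097 with exactly 1 symbol were used, and 1801 with more than 1 and 11777 without any were not. Each gene was read by its probe set with the highest mean over the 24 arrays, and the 12564 of 19775 genes that exceeded log2 5 on 3 or more arrays entered the test.

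A limma 3.58.1 model (R 4.3.3) with 1 mean per line and 16 residual degrees of freedom gave each contrast, and p-values were adjusted by Benjamini-Hochberg over all genes tested. It was tested on simulated data. Tables used Python 3.11.15 and pandas 2.3.3. The members and gene lists were chosen with earlier results of these data known. Named were the ATPases, 4 marker genes, the 15 called genes with the largest rise and the 15 with the largest fall whose arrays did not overlap, up to 6 called members per list with the smallest adjusted p (the 2 brightest where fewer than 2 were called), and the 6 largest differences each way in the other comparisons. The classes of knockdown genes came from the BRD and ATPdead lines. Alternatives changed the probe set rule, filter, scaling, threshold, model and the arrays used. Arrays of the same replicate number did not deviate together in the WT and GFP lines (correlations -0.17, -0.11 and 0.09), so the numbers were not treated as pairs. Promoters are RefSeq sequences, found for 111 of 142 named genes, and alternative start sites of a gene were not searched.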

Additional observations from a re-analysis of the deposited data

Results flagged for a closer look

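Among the 30 genes with the largest WT effects under S2sh7, the effect differed between S2sh7 and shLuc for 19, by limma's test of the difference (adjusted p under 0.05 over all genes tested), against 391 of 12564 genes tested (3.11%). The 30 were chosen for their effect under S2sh7, which is a term of this difference, so the count is a description. On the log2 scale, S2sh7 minus shLuc, the interferon genes gave 1.48 for IFI6, 1.40 for IFI27, 1.30 for OAS1 and 1.00 for IFI44. The transcription factors gave 0.80 for ATF3, 0.72 for KLF4, -0.43 for MEF2C, -0.42 for HLX and -0.48 for ARID5B. Secreted, matrix and motor protein genes gave 0.77 for SERPINE2, 0.57 for MYO5B, 0.53 for NTN4, 0.51 for COL13A1, -0.34 for SPP1, -0.54 for LOX and -0.47 for TFPI2. The rest were CRH at -0.91, APOE at -0.31 and TRIB1 at -0.42. OAS1 lay under log2 5, near background, with GFP and with WT under S2sh7. The call of ARID5B was lost when any of 8 of the 12 arrays was left out.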

How the results depend on the processing

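By limma, the 885 calls of the main comparison became 1363 with each probe set on its own, 570 with no filter, 192 with only the 6 arrays compared, 379 at adjusted p under 0.01, 24 at 1.5-fold or more and 799 with the replicate block, and 521 to 750 without an array. The 503 under shLuc became 261 with no filter, 970 with array weights, 70 with only its arrays, 153 at 0.01 and 3 at 1.5-fold, and 191 to 378 without an array. The 391 differences between hairpins became 210, 186, 111 and 24 with no filter, only their arrays, 0.01 and 1.5-fold, and 185 to 385 without an array. The 518 against ATPdead became 326, 58, 210 and 13 in that order, and 308 to 470 without an array. The 23 against BRD became 13 with each probe set, 7 with no filter, 35 with a filter at log2 over 6, 38 after repeated quantile normalization, 101 with a trended robust fit, 14 with array weights, 15 with the replicate block, 4 at 0.01, 1 at 1.5-fold, 0 with only its arrays, and 3 to 14 without an array. Repeated quantile normalization gave 609 higher and 402 lower calls in the main comparison, 234 and 267 under shLuc, 283 and 140 between hairpins, 296 and 292 against ATPdead, and 26 and 12 against BRD, where centring gave 22 and 7. Of 130 named genes called in the main comparison, 95 kept their call without each array, 23 lost it with the mean of all probe sets, 8 with the replicate block and 2 with another scaling. With the mean of its probe sets TOP2A turned from -0.18 to 0.0040 (adjusted p = 0.979). Arrays limit this to 3 per line, and small changes near background could not be ranked.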

Other observations

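2 genes that WT brought to about the level of the shLuc GFP line were CTSB, a lysosomal protease, and FJX1, a secreted YAP target. CTSB rose by 0.24 log2 with WT (adjusted p = 7.11e-05 by limma) and stood at -0.01 from the control line. FJX1 fell, at -0.21 (adjusted p = 0.00122 by limma), and stood at -0.01 too. Genes that differed between WT and a mutant but were not called between WT and GFP included GATM, an enzyme of creatine synthesis, at -0.49 from ATPdead and -0.14 from GFP, and GSTO2, at -0.45 and -0.09. The GATM call was lost without S2sh7 ATPdead replicate 1 or 2 or S2sh7 WT replicate 1 or 3 (limma's adjusted p from 0.0583 to 0.104), and that of GSTO2 without S2sh7 ATPdead replicate 1 or S2sh7 WT replicate 1 (0.0627 and 0.0712). FBXO2, a ubiquitin ligase subunit, was at -0.26 from BRD and -0.04 from GFP under S2sh7, and at -0.44 from GFP under shLuc. The FBXO2 call against BRD was lost without any of the 6 arrays but S2sh7 BRD replicate 3 (limma's adjusted p from 0.0696 to 0.241), with array weights, with the mean of its probe sets and with the replicate block.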
